A study of Mus musculus with 8 samples.

Results

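The members described here were the genes measured in Cd73-positive cells (Cd73PC) of the mouse retina at postnatal day 5 (P5) and postnatal day 8 (P8). They were chosen by joining the P5 and P8 tables on gene and locus, leaving out small RNA rows, and keeping rows that Cufflinks marked as estimated in both tables and that reached an FPKM of at least 1 in either. This gave 11636 members of 23021 rows, under 11600 gene symbols. FPKM counts the fragments of a transcript per kilobase of its length and scales them to the mapped fragments of the library, so levels of different genes in it are per length. Of the members, 10811 reached the minimum in both libraries, 484 at P5 alone, and 341 at P8 alone. Near the limit, 149 rows had a larger FPKM between 1 and 1.1, and 160 rows with a larger FPKM between 0.9 and 1 stayed outside.

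All samples of the series came from ICR mice, for which no engineered allele or treatment is named, and there were 8 libraries, 1 for each condition. Retinas at P2, P5, and P8 were pooled by age, dissociated, stained for Cd73, and sorted into Cd73PC and Cd73-negative cells (Cd73NC). The P5 and P8 Cd73PC libraries were compared, with the Cd73NC libraries and the P2 Cd73PC library read beside them. The sort selects on a surface protein, so a fraction may hold other cells, and in bulk RNA fewer cells of a type and less RNA per cell cannot be told apart.

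Cd73 is the ecto-5′-nucleotidase encoded by Nt5e and appears on rod precursors soon after they leave the cell cycle. A rod precursor of the mouse then builds, over the first postnatal weeks, an outer segment of stacked discs, a ribbon synapse to bipolar cells, and the proteins that turn the capture of a photon into a change of membrane potential. In that cascade light leads to the activation of transducin, which releases the inhibition of a cGMP phosphodiesterase, so that cGMP falls and cGMP-gated cation channels close. Bipolar cells and Müller glia, which are born late as well, differentiate over the same days in the inner nuclear layer.

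The rod markers were higher in Cd73PC than in Cd73NC at both ages, although Slc24a1 was still at a low level at P5. Gnat1, the alpha subunit of rod transducin, was at 13.7, 77.1, and 380 FPKM in Cd73PC at P2, P5, and P8, and at 0.651, 5.66, and 27.8 in Cd73NC. Slc24a1, the rod sodium, calcium, and potassium exchanger, was at 0.483, 3.60, and 41.0 FPKM in Cd73PC, and at 0, 0.598, and 3.31 in Cd73NC. Nt5e itself was at 131 FPKM at P5 and 124 at P8 in Cd73PC, a log2 ratio of -0.07, against 31.4 and 9.38 in Cd73NC. The level of the sorted antigen in the positive fraction thus moved little, while that of the negative fraction was lower at P8. Xist was at 3.89 and 3.72 FPKM and the Y-linked Ddx3y at 6.70 and 7.21 in the P5 and P8 Cd73PC libraries.

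Depth was similar in both libraries. At the lowest levels a value is a small whole multiple of that of 1 read, and the size of this unit placed the P8 Cd73PC library at 1.14 times the depth of the P5 Cd73PC library, and the 8 libraries between 0.865 and 1.45 times of it. At P5 11330 rows and at P8 11189 rows had an FPKM of at least 1. The 10 highest rows held 5.09% of the summed FPKM at P5 and 6.68% at P8.

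With 1 library on each side, no replicate error exists and no test was made. A member was said to have risen or fallen when FPKM + 1 differed by at least 1.5-fold between the P8 and P5 libraries, which is 0.58 on the log2 scale. All log2 ratios below are of FPKM + 1, P8 over P5, and understate the change of low genes. By this rule 687 members rose (5.9% of all) and 988 fell (8.49%). Past 2-fold there were 248 higher and 280 lower, and past 4-fold 36 higher and 17 lower. The median log2 ratio of all members was -0.06, with 5% of members below -0.76 and 5% above 0.65. More members fell than rose, but among the steepest changes the rises were more frequent.

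**Figure D1:**
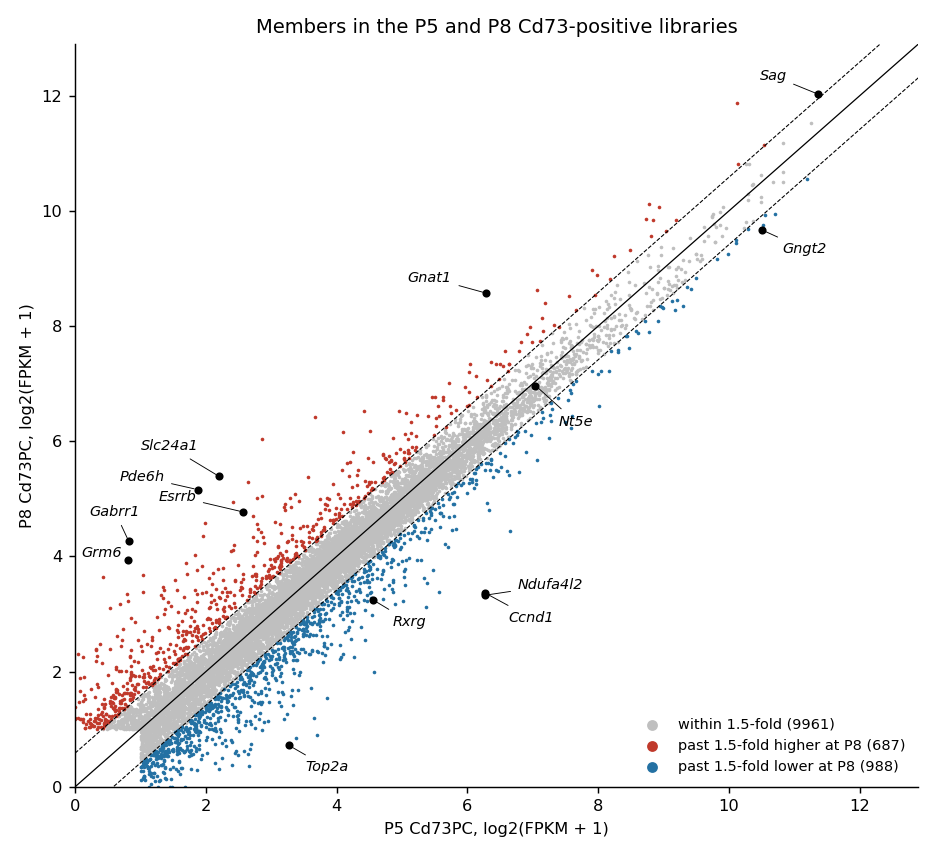
Each point is 1 of the 11636 members, with log2(FPKM + 1) of the P5 Cd73PC library on the x axis and of the P8 Cd73PC library on the y axis. The solid line marks equal values and the dashed lines 1.5-fold, and the 687 risen members are red, the 988 fallen ones blue. Sag lies at the top right, Gnat1, Slc24a1, and Esrrb well above the diagonal, and Ccnd1, Ndufa4l2, and Top2a well below it.

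The same members were read in the other fraction. From P5 to P8 in Cd73NC, 12% of 11633 members with a value were past 1.5-fold higher and 12.4% lower. Of the 687 members that rose in Cd73PC, 439 also rose in Cd73NC, 15 fell there, and 233 stayed within 1.5-fold. Of the 988 that fell, 565 fell in Cd73NC, 23 rose, and 400 stayed within. Across members, Pearson's r between the log2 ratios of the 2 fractions was 0.63 (11633 genes, which are not replicates, with both fractions taken from the same sorts). Among the 50 largest rises in Cd73PC, 33 had a lower level in Cd73PC than in Cd73NC at P8, 11 a higher level, and 6 lay within 1.5-fold. Among all 687 risen members, 268 were lower in Cd73PC than in Cd73NC at P8, 260 were higher, and 159 lay within, beside 3119, 1619, and 6898 of all 11636 members. The P8 values of Cd73PC also chose the risen members, so these splits are a description. At P5, 206 of the risen members were lower in Cd73PC, 199 higher, and 282 within, beside 2701, 1514, and 7421 of all members.

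The interval from P2 to P5 shares the P5 library, so its values are given only side by side. In Cd73PC 6.12% of 11632 members were past 1.5-fold higher at P5 than at P2 and 13.1% lower. Of the 687 members that rose after P5, 217 had risen and 68 had fallen from P2 to P5. Of the 988 that fell after P5, 458 had already fallen and 47 had risen. At P2, in libraries outside the comparison, 15.3% of the members were past 1.5-fold higher in Cd73PC than in Cd73NC and 20.3% lower. Of the members that later rose, 205 were higher and 169 lower in P2 Cd73PC than in P2 Cd73NC, and of those that later fell, 143 were higher and 552 lower.

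The rod phototransduction cascade rose as a group. Of 12 member rows (11 genes, Cngb1 having 2 rows), 8 rose and none fell, with a median log2 ratio of 0.79 against -0.06 for all members. Slc24a1 (chromosome 9, 64770668 to 64799414, mm9), which returns calcium from the outer segment, had the steepest rise of the cascade, with a log2 ratio of 3.19. Gnat1 (chromosome 9, 107576805 to 107581923) followed with 2.29. Pde6a, the alpha subunit of the phosphodiesterase, went from 20.4 to 91.6 FPKM (log2 ratio 2.11).

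The other subunits moved less in proportion, from higher levels. Pde6b, the beta subunit, went from 359 to 640 FPKM, Pde6g, the inhibitory gamma subunit, from 1492 to 2269, and Cnga1, the alpha subunit of the cGMP-gated channel, from 124 to 253. Gngt1, the gamma subunit of rod transducin, went from 448 to 753 FPKM. Pde6a thus stayed below Pde6b at both ages. Just inside the threshold stood Pde6g at a log2 ratio of 0.60, and just outside it the 2 rows of Cngb1, the beta subunit of the channel, at 0.58 and 0.53, and Gnb1, the beta subunit of transducin, at 0.56. Pde6d, a prenyl-binding protein found in many tissues, was at 140 and 145 FPKM. In Cd73NC the same rows had a median log2 ratio of 0.30, and 5 of 12 rose. At P8 Cd73NC held 7.33% of the Cd73PC level of Gnat1 and 8.08% of that of Slc24a1. The list as a whole took 1.41% of the summed FPKM of Cd73PC at P5 and 2.93% at P8.

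**Figure D2:**
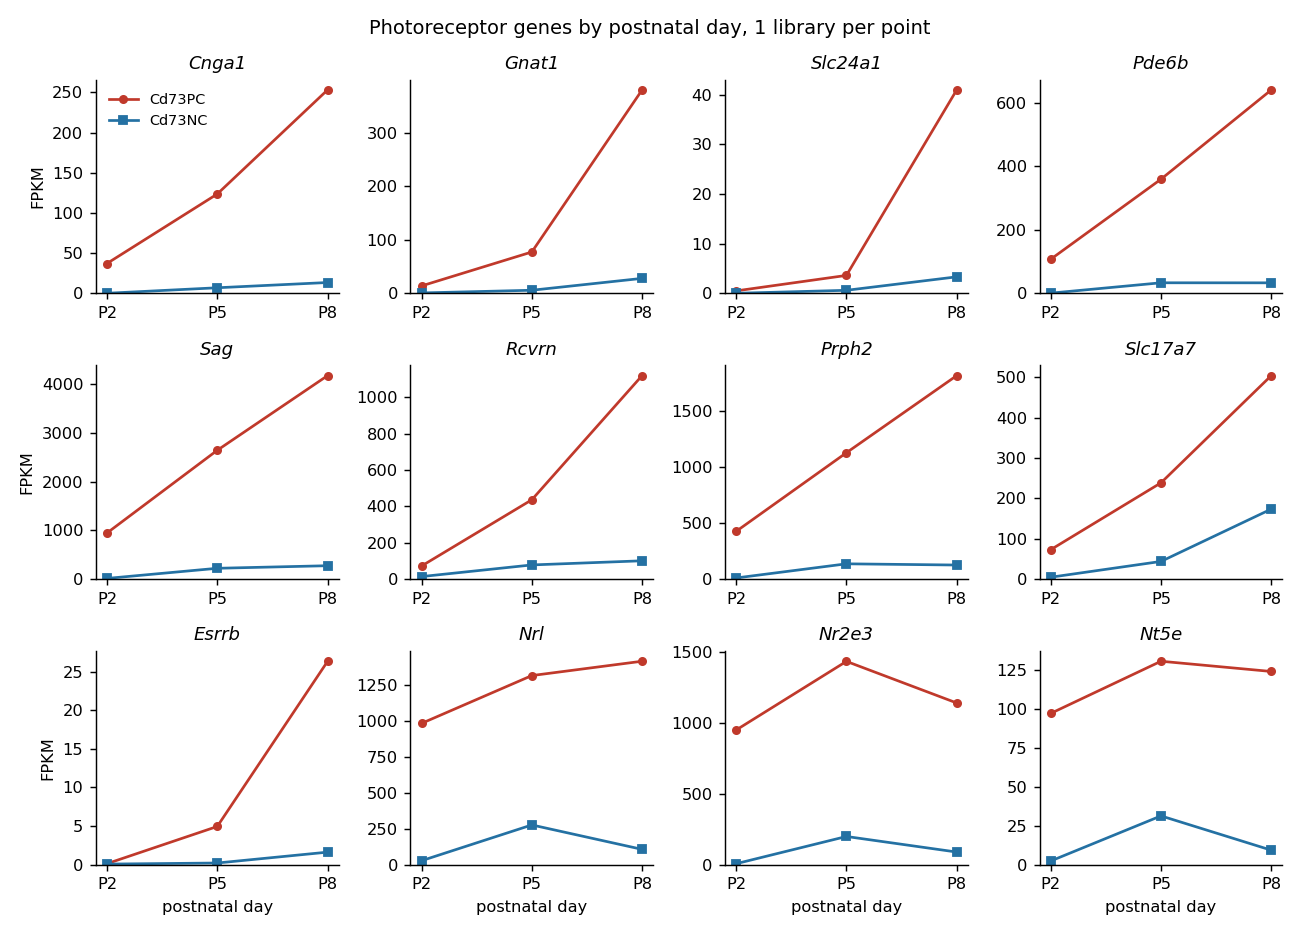
FPKM (linear axis) against postnatal day for 12 photoreceptor genes, with Cd73PC as red circles and Cd73NC as blue squares, 1 library per point. Gnat1, Slc24a1, Rcvrn, and Esrrb climbed steeply in Cd73PC between P5 and P8, whereas Nrl, Nr2e3, and Nt5e stayed within 1.5-fold.

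The list for recovery of the light response rose in the same way. It holds proteins that end the response or adjust its gain, but also Cabp4 and Unc119, which are in the ribbon synapse list too. Of 15 members, 11 rose and none fell (median 0.95). Cabp4, a calcium-binding protein of the rod terminal, went from 5.86 to 31.2 FPKM, the largest log2 ratio of the list at 2.23. The guanylate cyclase Gucy2f went from 4.32 to 16.2 FPKM and its activator Guca1b from 4.21 to 16.0. Grk1, a photoreceptor kinase that helps to end the light response, was at 5.69, 29.9, and 91.5 FPKM at P2, P5, and P8. Rcvrn, the calcium sensor recoverin that restrains the kinase, was at 71.5, 436, and 1119, and Rgs9bp, the anchor of the GTPase-activating complex, rose by 1.48 on the log2 scale. Sag, rod arrestin, was the most abundant of them, at 944, 2642, and 4174 FPKM. Guca1a, another cyclase activator, moved from 43.0 to 37.5 FPKM, the only log2 ratio of the list below 0. Guca1a and Guca1b thus took opposite directions, although only Guca1b passed the threshold. Pdc, phosducin, was already at 1935 FPKM at P2 and reached 2964 at P8 within 1.5-fold of P5.

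Among 31 genes of the outer segment disc and of photoreceptor maintenance, 13 rose and none fell, with a median of 0.49. Abca4, the flippase of disc membranes, went from 43.1 to 108 FPKM, Impg1, a proteoglycan of the matrix around photoreceptors, from 51.6 to 128, and Rdh12, a retinol dehydrogenase, from 144 to 336. Prph2, peripherin of the disc rim, went from 1124 to 1811 FPKM and was past the threshold, whereas its partner Rom1 went from 1811 to 2308 and was not. Rbp3, the retinoid-binding protein of the matrix, gained 528 FPKM but stayed within 1.5-fold. In Cd73NC this list had a median of -0.24, with 7 rises and 10 falls.

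Several rod genes carry the letters TAATCC, the core recognised by Crx and Otx2, close before their start. The RefSeq table used here (build GRCm38.p6) gives windows of 300 bases, 250 before and 50 after the annotated start. TAATCC stood on either strand in 8 of the 11 recovery genes with a window and in 3 of the 7 cascade genes with one. Counted by window, this was 61.5% of 13 recovery windows and 42.9% of 7 cascade windows. It was 7.06% of all 32851 windows of the table and 5.84% of 10548 windows of all members. Of 638 windows of risen members it was 7.84%, and of 882 windows of fallen members 4.31%. Gnat1, Pde6a, Pde6g, Cabp4, Guca1b, Rcvrn, and Rgs9bp were not matched. Of cascade and recovery genes with the letters, Cnga1, Gngt1, Aipl1, Gnb5, Gucy2e, Gucy2f, and Sag rose, and Cngb1, Guca1a, Ppef2, and Unc119 did not. Slc24a1, Pde6b, Grk1, and Rgs9 rose and had windows without the letters. Whether the letters go with a rise was not tested. These are counts of letters in one window, not sites of binding. The 250 bases before the start of Sag (chr1:87803430-87803679, plus strand), Gngt1 (chr6:3993758-3994007, plus strand), and Gucy2f (chrX:142196937-142197186, minus strand) are shown because each gene rose and held the letters, in capitals as TAATCC or its reverse complement.
Sag: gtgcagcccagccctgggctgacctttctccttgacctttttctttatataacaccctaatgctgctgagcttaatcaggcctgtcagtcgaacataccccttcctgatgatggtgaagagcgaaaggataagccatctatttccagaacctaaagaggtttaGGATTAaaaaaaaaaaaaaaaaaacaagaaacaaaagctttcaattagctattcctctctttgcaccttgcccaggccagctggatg
Gngt1: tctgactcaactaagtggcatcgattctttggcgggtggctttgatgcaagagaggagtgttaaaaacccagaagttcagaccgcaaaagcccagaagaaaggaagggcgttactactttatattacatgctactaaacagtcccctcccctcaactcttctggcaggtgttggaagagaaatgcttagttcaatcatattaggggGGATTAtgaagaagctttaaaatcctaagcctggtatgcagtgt
Gucy2f: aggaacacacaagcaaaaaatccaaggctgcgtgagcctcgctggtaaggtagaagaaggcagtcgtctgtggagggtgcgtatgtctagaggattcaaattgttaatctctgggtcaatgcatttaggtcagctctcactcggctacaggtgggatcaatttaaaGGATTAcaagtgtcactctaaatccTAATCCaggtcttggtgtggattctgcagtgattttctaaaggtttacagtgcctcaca

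In Sag the match began 87 bases before the start, in Gngt1 44, and in Gucy2f 84 and 59. The table build differs from that of the expression files, so these coordinates are not to be joined with the mm9 coordinates given for gene rows.

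Photoreceptor transcription factors moved little as a group. Of 21 members 2 rose and 2 fell, with a median of 0.01. This was 9.52% in each direction, beside 5.9% risen and 8.49% fallen of all members. Esrrb, an orphan nuclear receptor, was at 0.144, 4.96, and 26.3 FPKM over the 3 ages, a log2 ratio of 2.20, and Ahr, the aryl hydrocarbon receptor, from 1.42 to 5.58. Rxrg, the retinoid X receptor found in cones and cone precursors, fell from 22.6 to 8.48 FPKM, and Neurod4, a bHLH factor of late retinal neurogenesis, from 152 to 86.5. The factors that define rods were high at both ages. Nrl was at 1317 and 1417 FPKM, Crx at 859 and 966, and Nr2e3 at 1433 and 1140. Otx2, upstream of Crx, was at 777, 492, and 353 FPKM at P2, P5, and P8, and Casz1 went from 55.2 to 82.6, both within 1.5-fold between P5 and P8. In Cd73NC 11 of these 21 genes fell, with Nrl from 277 to 107.

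The presynaptic side rose in part. Of 29 members of the photoreceptor ribbon synapse, 9 rose and none fell (median 0.36). Besides Cabp4, Lin7a, a scaffold protein, went from 2.64 to 12.6 FPKM, Cplx4, a complexin of ribbon terminals, from 48.4 to 108, and Cacnb2, a calcium channel beta subunit, from 13.7 to 31.0. Slc17a7, the vesicular glutamate transporter of photoreceptors, was at 72.7, 239, and 505 FPKM over the 3 ages. The pore-forming subunit Cacna1f went from 10.5 to 16.3 FPKM, just inside the threshold at 0.59, and Syt1, a vesicle calcium sensor, at 0.57 lay just outside it. The vesicle protein Syp (857 and 956 FPKM) and the fusion protein Snap25 (379 and 418) stayed within 1.5-fold. In Cd73NC 20 of these 29 rose, with a median of 0.93. Lin7a illustrates that the list is not specific to rods, since it was at 99.1 FPKM in Cd73NC at P8.

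Of 17 ion channels and pumps of photoreceptors 8 rose and none fell (median 0.31). Kcnj14 went from 1.68 to 8.22 FPKM, Slc12a5, the neuronal potassium chloride cotransporter, from 9.77 to 30.3, and Slc6a6, the taurine transporter, from 21.2 to 51.6. Kcnv2, a silent potassium channel subunit of photoreceptors, went from 94.1 to 188. Atp1b2, a sodium pump subunit (962 and 1078), stayed within the threshold. Slc4a7, a sodium bicarbonate cotransporter, went from 36.2 to 58.7 FPKM in Cd73PC and from 20.4 to 10.9 in Cd73NC.

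Cone genes moved in both directions. Of 15 members 5 rose and 3 fell, with a median of 0.03. Pde6h, the inhibitory subunit of the cone phosphodiesterase, was at 19.4 FPKM at P2, 2.67 at P5, and 34.8 at P8, the second largest log2 ratio of all members at 3.29. Its course was similar in Cd73NC, at 15.7, 3.08, and 22.2. Opn1mw, the middle-wavelength cone opsin, went from 0.0583 to 2.72 FPKM, and Opn1sw, the short-wavelength opsin, from 79.6 to 76.5. Gulo, the enzyme of vitamin C synthesis, went from 8.57 to 18.2 FPKM. Gngt2, cone transducin gamma, fell from 1460 to 812 FPKM and Ccdc136 from 38 to 14.4. The row of Gngt2 overlaps that of Abi3, and reads in an overlap cannot be assigned to a strand with this kit. Gnat2, the alpha subunit of cone transducin, was at 22.3 and 22.8 FPKM. Pde6c, the catalytic cone subunit, was no member (0.666 and 0.945 FPKM).

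Of 16 genes that handle retinoids 6 rose and 1 fell (median 0.38). Rdh12, Abca4, and Rdh8 are photoreceptor proteins that rose, and Dhrs3, a retinal reductase of cones, went from 28.2 to 65.2. Rpe65, the isomerase of the pigment epithelium, went from 0.253 to 4.26 FPKM and Ttr, a carrier of retinol and thyroxine, from 16.0 to 44.4. Rlbp1, the retinaldehyde-binding protein of Müller glia, fell from 68.8 to 39.1. Members that are not made by rods thus stood at both ends of this list.

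Genes of the cilium stayed level. Of 41 members of the primary cilium and ciliary transport, none rose and Tulp3 alone fell, from 7.82 to 4.65 FPKM, and the median was 0.15. Bbs1 (24.7 and 36.8 FPKM) and Ift172 (6.19 and 9.53) came closest to a rise. Of 7 Usher syndrome genes 3 fell, Cib2 from 12.7 to 6.36, Pcdh15 from 31.7 to 19.8, and Clrn1 from 3.55 to 1.89, and none rose. Of 22 genes of lipid synthesis and binding 3 fell, namely Fabp7 (354 to 196), Fabp5 (81.0 to 47.6), and Acsl3 (48.0 to 31.1), and none rose. Elovl4, which makes very long chain fatty acids of discs, was at 302 and 357. None of the 22 rows of cholesterol synthesis passed the threshold in either direction (median -0.01). Falls were 2.44% of the cilium list, 42.9% of the Usher list, and 13.6% of the lipid list. Over all members 8.49% fell and 5.9% rose, so few calls would stand in lists of these sizes at that share.

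Energy metabolism changed at few points. Of 24 genes of glycolysis and lactate 4 rose and 1 fell (median 0.20). This was 16.7% and 4.17%, beside 5.9% and 8.49% of all members. Hk1 and Hk2, the hexokinases that commit glucose, went from 63.9 to 147 and from 2.19 to 7.13 FPKM, Slc16a1, a lactate transporter, from 3.81 to 13.0, and Pfkfb2, which sets the level of an activator of phosphofructokinase, from 7.57 to 17.2. Ldhb fell from 53.7 to 29.1 FPKM, while Ldha stayed at 1822 and 1643. Of 23 genes of the citric acid cycle Idh2 (31.6 to 17.7) and Suclg2 (3.43 to 1.16) fell. These falls were 8.70% of the list, near the share of all members. None of the 69 genes of the respiratory chain and ATP synthase passed the threshold, and their median was -0.16.

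Among 23 heat shock and unfolded protein response genes 5 rose and none fell (median 0.29). Hspa1a and Hspa1b, near-identical copies whose reads can be split between them, went from 2.11 to 6.36 and from 2.55 to 7.28 FPKM. Hspa5, the chaperone of the endoplasmic reticulum, went from 142 to 241 and Xbp1, a factor of that response, from 33.3 to 54.3. Hsp90aa1 went from 247 to 373. Of 18 clock genes Bhlhe41 (7.98 to 15.3) and Rora (13.0 to 20.9) rose and 1 fell. Of 14 immediate early genes Dusp1 (7.33 to 3.36) and Ier2 (19.4 to 11.3) fell, and Fos was at 3.39 and 3.31. Rises were 21.7% of the heat shock list and 11.1% of the clock list, beside 5.9% of all members. Falls were 5.56% of the clock list and 14.3% of the immediate early list, beside 8.49% of all members. In the clock and immediate early lists these shares rest on very few genes.

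**Figure D3:**
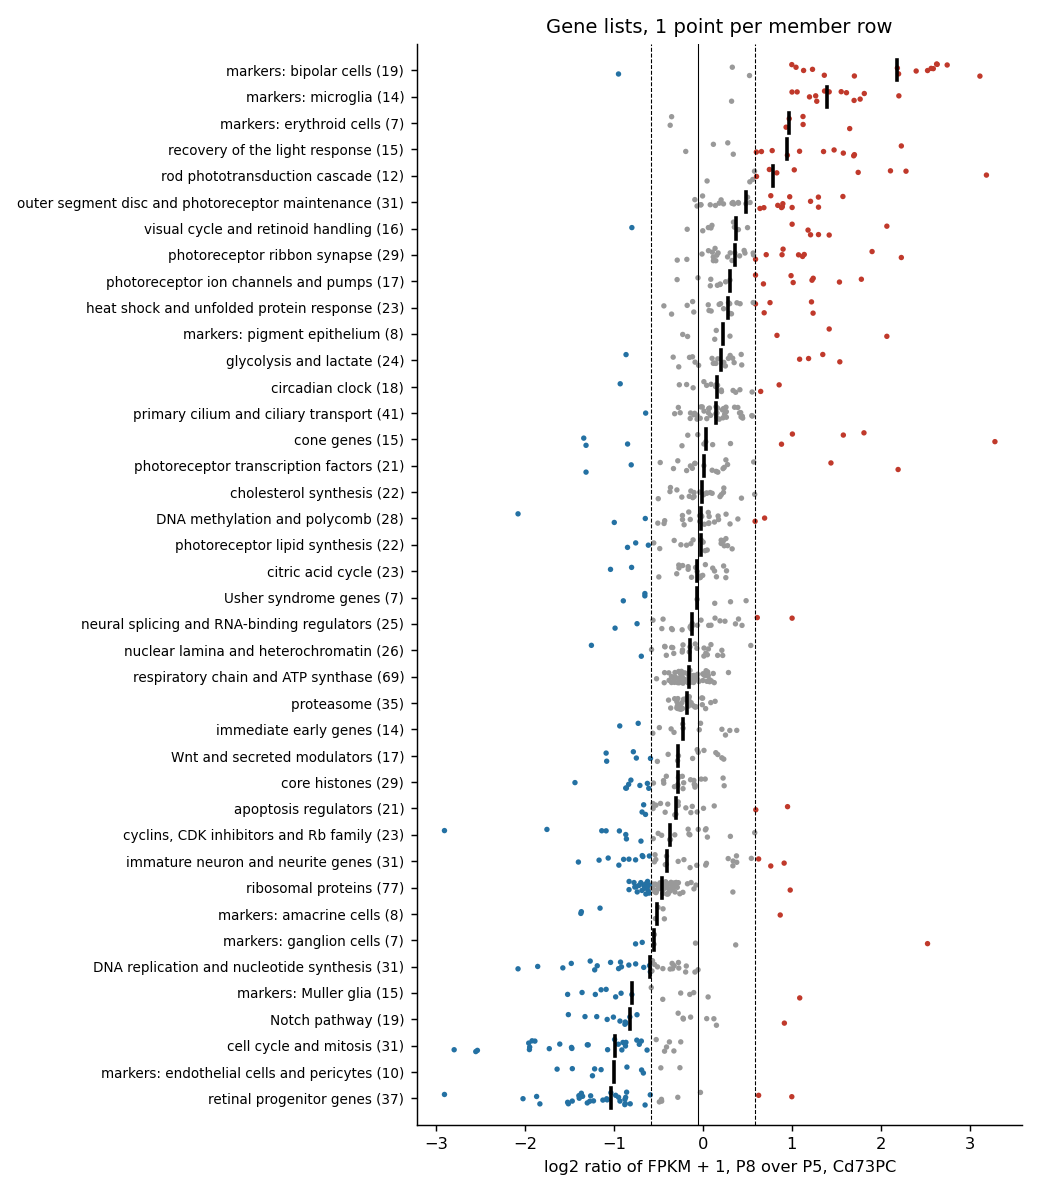
Log2 ratio of FPKM + 1, P8 over P5 in Cd73PC, for each member row of 40 gene lists with at least 7 member rows, with the number of rows in parentheses. Short black bars are list medians, the thin line is the median of all members, and the dashed lines mark 1.5-fold. Bipolar, microglial, erythroid, and rod lists stand at the top, and progenitor, endothelial, cell cycle, and Notch lists at the bottom.

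Genes of cell division fell almost throughout. Of 31 members of the cell cycle and mitosis list 25 fell and none rose, with a median of -0.99 against -0.06 for all members. Ube2c, which serves the anaphase-promoting complex, was at 45.7, 11.9, and 0.863 FPKM at P2, P5, and P8 (log2 ratio -2.80). Top2a, the topoisomerase of dividing cells, was at 40.4, 8.66, and 0.645, and Ccna2, cyclin A, at 37.8, 9.38, and 0.790. Mki67 went from 4.64 to 0.460. Ube2c, Top2a, Ccna2, and Mki67 were below the minimum FPKM at P8 and so were members through P5 alone. Over members of the list at the minimum in both libraries the median was -0.70. At P5 none of the list was above 12.2 FPKM, the value of Smc4, which was at 10.1 at P8. At P8 the summed FPKM of the list was 45.9 in Cd73PC and 70.5 in Cd73NC, after 557 and 1613 at P2. In Cd73NC all 31 fell (median -2.22). The row of Ccna2 overlaps that of Exosc9.

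DNA replication and nucleotide synthesis followed at a smaller size. Of 31 members 16 fell and none rose (median -0.59). Uhrf1, which guides maintenance methylation, fell from 5.25 to 0.481 FPKM, Rrm2, of the ribonucleotide reductase, from 4.44 to 0.501, Tk1, thymidine kinase, from 2.64 to 0.224, and Mcm3, of the replicative helicase, from 5.15 to 1.21. Pcna stayed higher than the rest, at 65.9 and 51.9. Among 23 rows of cyclins, their inhibitors, and the Rb family 8 fell and none rose (median -0.37). Ccnd1, cyclin D1 of retinal progenitors (chromosome 7, 152115836 to 152125830), was at 272, 76.3, and 9.31 FPKM in Cd73PC and at 1095, 240, and 41.8 in Cd73NC. E2f1 fell from 6.39 to 1.19 FPKM, Cdk2 from 3.93 to 1.24, and Cdk4 from 119 to 55.4. The inhibitor Cdkn1b moved from 66.6 to 46.7, within 1.5-fold, and Rb1 was at 20.4 and 20.9.

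Other letters were counted in the windows of these lists. CCAAT stood in 22 of 25 cell cycle genes with a window and TTTGAA, the core of the cell cycle homology region, in 19. Counted by window, this was 88.5% and 76.9% of 26, beside 38.4% and 11.2% of the windows of all members. In replication genes CCAAT and TTTGAA stood in 13 and 2 of 24. The E2F letters TTTGGCGC, TTTCCCGC, or TTTCGCGC stood in 10 of 24 replication genes, or 34.5% of their 29 windows. They stood in 3.35% of windows of all members, 1.84% of all windows, 0.94% of windows of risen members, and 5.90% of those of fallen members. TAATCC was in none of the 25 cell cycle genes. Windows of fallen members had a median GC content of 62.0%, those of risen members 58.7%, those of all members 61.3%, and all windows 52.7%, so shares of AT-rich and GC-rich letters are not on equal ground. For the other letters, TGCTGA (half-site of Maf proteins such as Nrl) stood in 22.6% of risen, 17.0% of fallen, and 14.9% of all members' windows, AGGTCA (nuclear receptor half-site) in 15.5%, 13.8%, and 12.2%, TGACGTCA in 2.19%, 2.38%, and 3.27%, and the Mef2 consensus in 1.41%, 0.91%, and 1.02%. Over all windows of the table these shares were 19.5%, 16.3%, 1.79%, and 1.86%. The 250 bases before the start of Ube2c (chr2:164769679-164769928, plus strand) show 6 CCAAT letters or their reverse complement in capitals. Those of Mcm6 (chr1:128359706-128359955, minus strand; 7.77 to 2.78 FPKM) show 3 E2F matches in capitals, of which 2 on opposite strands overlap.
Ube2c: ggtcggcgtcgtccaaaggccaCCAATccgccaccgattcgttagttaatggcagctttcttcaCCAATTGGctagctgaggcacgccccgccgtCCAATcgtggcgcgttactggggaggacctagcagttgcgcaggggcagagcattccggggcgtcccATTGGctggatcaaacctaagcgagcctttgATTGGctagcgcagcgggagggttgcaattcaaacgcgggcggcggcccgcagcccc
Mcm6: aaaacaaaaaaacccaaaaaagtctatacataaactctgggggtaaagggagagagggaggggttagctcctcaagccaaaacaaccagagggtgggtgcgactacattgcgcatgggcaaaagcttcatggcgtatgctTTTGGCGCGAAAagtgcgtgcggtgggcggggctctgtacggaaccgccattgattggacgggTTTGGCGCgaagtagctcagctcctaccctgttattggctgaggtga

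Retinal progenitor genes fell as widely as mitotic ones. Of 37 members 30 fell and 2 rose, with a median of -1.03. Fgf15 fell from 4.25 to 0.293 FPKM, and Nes, the intermediate filament nestin, from 6.26 to 0.987. Ccnd1 belongs to this list as well. Vim, vimentin of progenitors and Müller glia, was at 79.6 and 27.1, and Pax6 at 13.0 and 4.45. Of the 2 rises, Gadd45a, a stress-response gene, went from 27.8 to 43.5. Rax, which photoreceptor precursors also express, was at 241 and 198. At P8 the level in Cd73PC was, as a median over the list, 19.2% of that in Cd73NC.

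The Notch pathway, which holds progenitors undifferentiated, showed 11 falls and 1 rise among 19 members (median -0.82). Cd73NC showed 11 falls and 2 rises among the same 19 (median -0.61). Dll3 fell from 7.93 to 2.13 FPKM, Heyl from 3.59 to 0.832, Lfng from 5.53 to 1.86, and Hes5 from 17.3 to 7.70. Jag1, a ligand, was the rise, from 3.51 to 7.52, and it had been at 1.11 at P2, while Cd73NC stayed at 1.07 and 1.1 FPKM. Among 17 Wnt receptors and secreted modulators 5 fell and none rose, with Dkk3 from 54.4 to 25.1 and Sfrp2 from 3.26 to 1.02.

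Among 31 genes of immature neurons and neurites 10 fell and 3 rose (median -0.41). Stmn1, the microtubule-destabilizing stathmin, fell from 257 to 96.9 FPKM, Marcksl1 from 179 to 79.3, Elavl3 from 2.20 to 0.531, and Tubb2b from 86.1 to 44.3. The rises were Mapt, the tau protein, from 2.57 to 5.73, Crmp1 from 21.1 to 36.5, and Kif5c from 1.99 to 3.62, and each of these was higher in Cd73NC at P8, at 58.7, 276, and 23.9. In Cd73NC the list had 11 rises and 6 falls. Stmn1, which fell by 1.40 on the log2 scale in Cd73PC, had a log2 ratio of -0.26 in Cd73NC.

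Among chromatin genes the histone rows fell most widely, with 26 of 29 below 0. Of them 27.6% fell, beside 7.69% of the lamina list, 10.7% of the methylation and polycomb list, and 8.49% of all members. Rises were 7.14% of the methylation and polycomb list, beside 5.9% of all members. Of 29 rows of core and linker histones 8 fell and none rose (median -0.28), led by H1fx (49.4 to 17.6 FPKM), H2afz (125 to 67.9), Hist1h4i (2.62 to 0.994), and H1f0 (186 to 104). Histone genes of near-identical sequence and without a poly(A) tail are measured poorly after poly(A) selection. Of 26 genes of the lamina and heterochromatin Hmgb2 (31.9 to 12.8) and Banf1 (117 to 71.9) fell, while Lbr (11.5 and 10.8) and Lmna (1.73 and 1.33), whose low level goes with the inverted nuclei of rods, stayed within 1.5-fold. Of 28 genes of DNA methylation and polycomb, Dnmt3a (27.2 to 44.6) and Kdm5b (49.8 to 75.3) rose and Uhrf1, Ring1 (17.6 to 8.32), and Ezh2 (21.5 to 13.3) fell. Kdm6b, a demethylase of H3K27, was at 36.9 and 31.3.

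RNA-binding regulators and apoptosis genes held calls in both directions. Of the splicing list 8% rose and 8% fell, and of the apoptosis list 9.52% and 14.3%. Over all members these shares were 5.9% and 8.49%. Of 25 splicing regulators Mbnl1 (12.4 to 25.9 FPKM) and Mbnl2 (22.6 to 35) rose and Rbm3 (87.8 to 43.8) and Rbfox2 (2.26 to 0.954) fell. Both muscleblind paralogues thus rose in Cd73PC, while in Cd73NC Mbnl2 went from 23.0 to 14.3. Of 21 apoptosis regulators Bmf (5.70 to 12) and Xiap (33.6 to 51.3) rose, and the 3 that fell included Bid (1.37 to 0.494) and Trp53 (28.3 to 17.7). Bmf promotes and Xiap blocks cell death, so the rises were not of one kind.

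Markers of bipolar cells made up much of the top of the ranking. Of 19 members 16 rose and 1 fell, with a median of 2.19 against -0.06 for all members, and 7 of the 15 steepest rises were of this list. Grm6, the glutamate receptor of ON bipolar cells, was at 0.0198, 0.761, and 14.3 FPKM in Cd73PC at P2, P5, and P8, and at 0, 6.58, and 162 in Cd73NC. Pcp2 went from 11.8 to 84.7 in Cd73PC and from 12 to 468 in Cd73NC, Trnp1 from 5.27 to 38 and from 25.2 to 306, and Vsx1 from 1.06 to 11.7 and from 9.28 to 153. The row of Pcp2 overlaps 2900053A13Rik. Cabp5, a calcium-binding protein, went from 2.96 to 22.9 in Cd73PC, and Isl1, the ON bipolar factor, from 4.31 to 29.6. Irx5 fell, from 3.17 to 1.16 FPKM.

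Each of the 19 markers was lower in Cd73PC than in Cd73NC at P8. The Cd73PC level was between 6.82% and 28.7% of the Cd73NC level, with a median of 11.9%, and the median was 18.8% at P5. All log2 ratios of risen bipolar markers went in the same direction in Cd73NC, where 18 of 19 rose with a median of 3.55. Summed over the list, FPKM was 118, 138, and 469 in Cd73PC at P2, P5, and P8, and 242, 608, and 3693 in Cd73NC. The part of bipolar cells in the sorted Cd73PC, in these rises and in those of the synapse and channel lists, was not tested. Sequence from Cabp5 (chr7:13397905-13398154, plus strand), with 2 TAATCC letters in capitals, is shown because these letters were also found in a gene of this list. They stood in 3 of the 15 bipolar genes with a window, and the rest lacked them. Counted by window, this was 15% of 20, beside 5.84% of the windows of all members.
Cabp5: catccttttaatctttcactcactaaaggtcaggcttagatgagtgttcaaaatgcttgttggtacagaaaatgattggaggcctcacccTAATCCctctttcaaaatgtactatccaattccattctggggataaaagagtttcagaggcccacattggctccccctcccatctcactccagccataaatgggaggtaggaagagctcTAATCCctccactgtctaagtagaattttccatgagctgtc

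**Figure D4:**
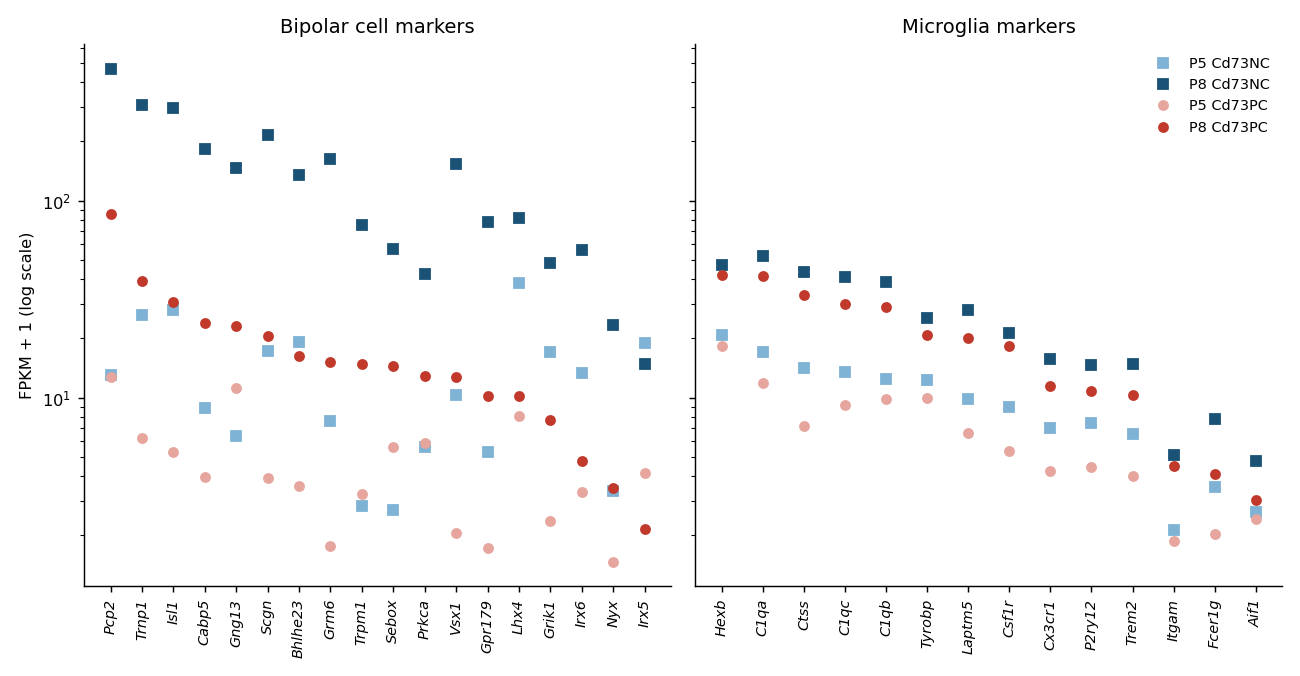
FPKM + 1 on a logarithmic axis for 18 of the 19 bipolar cell members (left) and 14 microglia members (right), with Cd73NC as blue squares and Cd73PC as red circles, pale at P5 and dark at P8, 1 library per point. Bipolar markers lie far lower in Cd73PC than in Cd73NC at P8, whereas microglia markers, also lower in Cd73PC, lie between 45.2% and 88.5% of their Cd73NC level.

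Other genes of the 15 steepest rises had the same arrangement. Gabrr1, a GABA receptor subunit of bipolar cells and the steepest rise of all members (log2 ratio 3.44), went from 0.767 to 18.2 FPKM in Cd73PC and from 3.25 to 170 in Cd73NC. Qpct, glutaminyl cyclase, went from 0.346 to 11.5 and from 2.34 to 89.1, and Pcp4, a regulator of calmodulin, from 6.22 to 65.1 and from 26.8 to 438. Gpr179, of the bipolar list, went from 0.726 to 9.24 in Cd73PC. Fstl5 went from 0.455 to 7.59 in Cd73PC and to 66.5 in Cd73NC, Eef1a2, the elongation factor of mature neurons, from 0.611 to 7.98 and to 48.3, and Vstm2b from 0.758 to 8.37 and to 60.0. Of the 15, Slc24a1 and Pde6h were the 2 with a higher level in Cd73PC than in Cd73NC at P8.

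Müller glia markers went the other way. Of 15 members 8 fell and 1 rose (median -0.80), with Vim, Dbi (191 to 74.1 FPKM), Prss23 (7.38 to 2.62), and Kdr (22.1 to 9.47) at the bottom. Clu, clusterin, was the rise (31.9 to 69.0). Glul, glutamine synthetase, was at 75 and 54.6, and Slc1a3, the glial glutamate transporter, at 31.8 and 21.0. Over the list the Cd73PC level was 29.6% of the Cd73NC level at P5 and 21.4% at P8 as a median. Of 22 amacrine markers only 8 were members, of which Calb2 (2.03 to 0.170), Pax6, and Ebf3 (1.82 to 0.267) fell and Nrxn2 (0.684 to 2.08) rose. This was 37.5% and 12.5% of the 8, beside 8.49% and 5.9% of all members. Of 18 ganglion cell markers 7 were members, with Tubb3 (75.8 to 44.5) and Stmn2 (1.88 to 0.797) lower and Isl1 higher, and Pou4f1, Pou4f2, and Pou4f3 were at or below 0.412 FPKM at both ages. Calb2, Ebf3, Nrxn2, and Stmn2 reached the minimum FPKM only in the library where they were higher. The filter thus fixed their direction, and these calls say little about the cell types. Of 10 horizontal cell markers 3 were members, and Prox1, which bipolar and amacrine cells share, rose from 5.96 to 21.2 FPKM. Of 4 astrocyte members none passed the threshold, and Gfap was at 2.36 and 2.04.

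Markers of cells from outside the neural retina were also measured. Of 14 microglia members 13 rose and none fell (median 1.40). Ctss, a lysosomal protease, went from 6.23 to 32.3 FPKM, C1qa, of the complement, from 10.9 to 40.8, and Csf1r, the growth factor receptor of these cells, from 4.38 to 17.3. The remaining member, Aif1, was at 1.41 and 2.02. The summed FPKM of the 15 listed genes was 103, 83.6, and 266 in Cd73PC and 24.9, 125, and 348 in Cd73NC at P2, P5, and P8. At P8 the microglia markers stood at 73.2% of their Cd73NC level as a median, against 11.9% for bipolar markers, so the 2 lists were distributed differently between the fractions. The part of microglia in the rises of Cd73PC was not tested.

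Of 10 endothelial and pericyte members 8 fell and none rose (median -1.0). Cldn5, a tight junction protein, went from 8.94 to 2.19 FPKM, Rgs5, of pericytes, from 7.60 to 2.11, Egfl7 from 4.57 to 1.36, and Cdh5 from 2.41 to 0.469. Of these, Rgs5 moved from 10.8 to 14.7 in Cd73NC. The summed level of the 18 listed genes was 78.3 at P5 and 33.2 at P8 in Cd73PC, against 230 and 160 in Cd73NC.

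Among 7 erythroid rows (5 genes) 5 rose and none fell. Hbb-b1 went from 21.9 to 71.0 FPKM and Hba-a1, on 2 rows, from 488 to 1067 and from 423 to 926. The alpha globin rows are near-identical copies that overlap those of Hba-a2, so the split between them is uncertain. In Cd73NC the same rows reached 2732 and 2341. Of 8 pigment epithelium members Rpe65, Ttr, and Dct (11 to 20.4) rose, and Tyrp1 was at 8.43 and 7.38. At P8 all 8 were higher in Cd73PC, at 134% to 217% of their Cd73NC level, with a median of 179%. Of 15 lens genes 2 were members and Cryba2 rose (0.831 to 2.40). The part of vascular, blood, and pigment cells in these results was not tested.

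**Figure D5:**
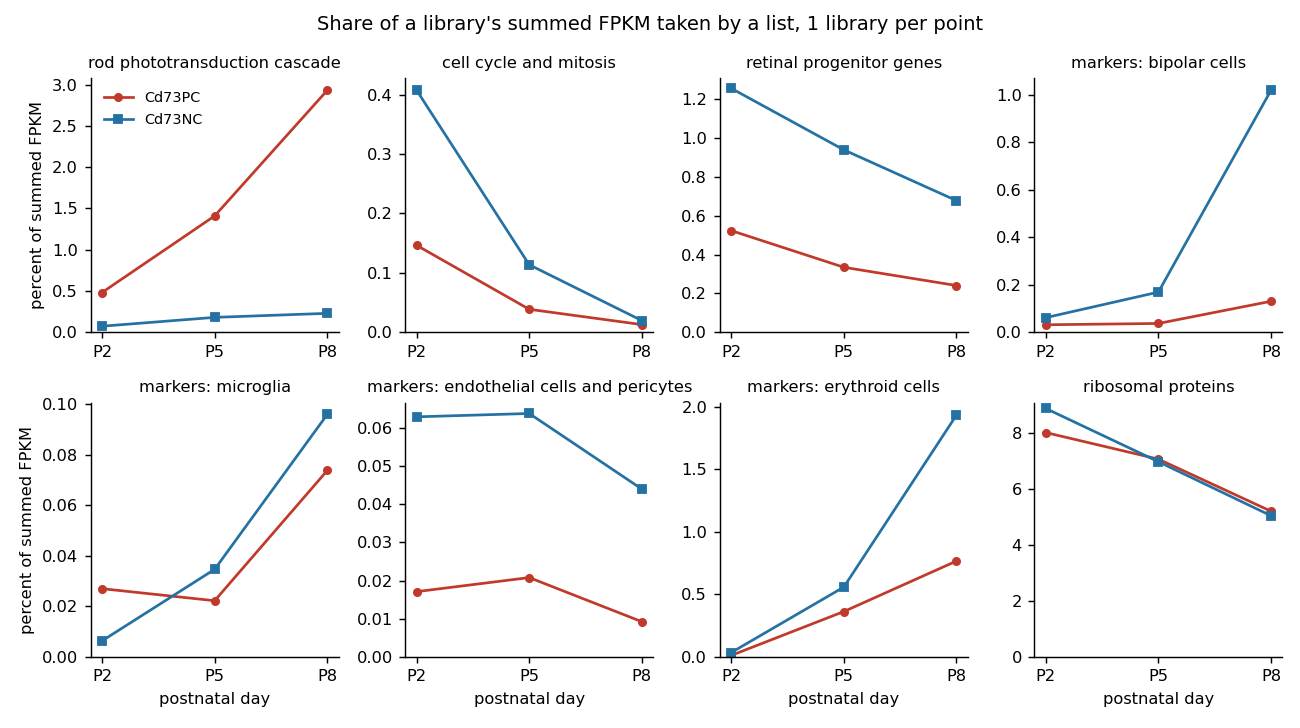
Share of a library's summed FPKM, in percent, taken by 8 gene lists at P2, P5, and P8, with Cd73PC as red circles and Cd73NC as blue squares, 1 library per point. In Cd73PC the rod cascade went from 1.41% at P5 to 2.93% at P8, bipolar markers from 0.037% to 0.130%, and ribosomal proteins from 7.06% to 5.2%.

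The steepest falls outside the lists were shared with Cd73NC. Ndufa4l2, a mitochondrial protein induced by low oxygen and the steepest fall of all members (log2 ratio -2.94), was at 74.9, 76.2, and 9.03 FPKM in Cd73PC and at 177, 199, and 37.6 in Cd73NC, and its row overlaps Shmt2. Csrp2 fell from 22.8 to 2.96 FPKM, Epha8, an ephrin receptor, from 11.5 to 1.30, Mfap4 from 13.4 to 1.91, and Tagln2 from 40.3 to 7.74. Kcne1l fell from 99.6 to 20.9 in Cd73PC and by less in Cd73NC, from 122 to 64.7. Mdk, the growth factor midkine, fell from 46.2 to 9.43, with a row that overlaps Chrm4. Pbk (5.32 to 0.289) and Pttg1 (8.16 to 1.26), both of mitosis, completed the 15 steepest falls with Ccnd1, Ube2c, Top2a, Ccna2, Uhrf1, and Fgf15.

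Measured in FPKM itself, the 10 largest gains included those of Sag, Pde6g, Prph2, Rcvrn, Gnb1, both Hba-a1 rows, Rbp3, and Pdc. Sag gained 1532 FPKM. The 10 largest losses included 4 genes of ribosomal proteins. Eef1a1, the elongation factor, went from 2334 to 1510 FPKM, Tpt1p from 1677 to 987 (its row overlaps Tpt1), Rps14 from 1500 to 978, Rps15 from 1254 to 821, Rps9 from 1016 to 609, and Rpl41 from 1100 to 724. Gngt2, Ckb, brain creatine kinase (1466 to 863), Ptms (1328 to 911), and Tmsb4x, thymosin beta 4 (1106 to 693), made up the rest. Rpl41 at 0.60 below 0 on the log2 scale was close to the threshold, and Ptms at -0.54 was inside it.

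Among ribosomal protein genes 75 of 77 members had a log2 ratio below 0, although most stayed within the threshold. Falls were 29.9% of the list, beside 8.49% of all members. Of 77 members 23 fell, 53 were within, and 1 rose, with a median of -0.46, and Rpl26 was the rise at 0.98. The list took 7.06% of the summed FPKM at P5 and 5.2% at P8 in Cd73PC, and 6.97% and 5.04% in Cd73NC, after 8.01% and 8.87% at P2. FPKM is relative to all mapped fragments of a library, so these are shares and not amounts per cell. Of 35 proteasome genes none passed the threshold (median -0.18). Of 914 member rows with systematic names (ending in Rik or starting with Gm) 35 rose and 81 fell, or 3.83% and 8.86%. Of 1119 olfactory receptor genes 2 were members, Olfr772 (1.95 and 1.40 FPKM) and Olfr773 (1.72 to 0.747), the latter a fall.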

How the data were processed

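RNA of sorted retinal cells was sequenced as single-end reads of 36 bases after poly(A) selection. The authors aligned the reads to mm9 with TopHat2 2.0.8b and estimated expression with Cufflinks 2.1.1 (versions per the submitters' processing notes), and deposited for each library the FPKM of 23021 rows with lower and upper bounds and a status. Read counts were not used here. From these values, 799 small RNA rows and 218 rows without an estimate in the P5 or P8 Cd73PC table were left out, 40 of which had an FPKM of at least 1. Log2 ratios used FPKM + 1. Libraries were matched to groups by their labels, with 1 library per group, so no test, standard error, or interval was computed, and only values, counts past 1.5-fold, and medians are given. The calling code was tested on simulated data. The members and the gene lists were chosen with earlier results of these data known. Genes were named as the 15 largest log2 rises and falls, the 10 largest FPKM gains and losses, up to 4 rises and 4 falls per list, and defining genes of a list. File starts are 0-based and are printed here 1-based. Against an NCBIM37 annotation, 21112 of 21187 symbols overlapped their locus. Relative depth was read from the ratio that low rows shared between libraries. Alternatives changed the pseudocount, filter, row handling, scaling, and threshold. Python 3.11.15, numpy 2.4.6, pandas 2.3.3, and matplotlib 3.10.9 were used. Some genes that the naming rule picks are not reported here.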

Additional observations from a re-analysis of the deposited data

Results flagged for a closer look

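In 4 named or listed genes the change from P5 to P8 went past 1.5-fold in opposite directions in Cd73PC and Cd73NC. The difference of the log2 ratios, Cd73PC minus Cd73NC, was 1.76 for Gulo, 1.53 for Slc4a7, 1.38 for Crb1, and 1.26 for Mbnl2, and with 1 library per group this difference was not tested. Gulo went from 8.57 to 18.2 FPKM in Cd73PC and from 6.59 to 3.51 in Cd73NC, and Crb1, a polarity protein of photoreceptors and Müller glia, from 33.0 to 56.8 and from 32.8 to 21.1.

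Outside the members, 142 small RNA rows had an FPKM of at least 1 in the P5 or P8 Cd73PC library. Their values were not analysed further.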

How the results depend on the processing

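The numbers of risen and fallen members and the median log2 ratio were recomputed under 13 alternatives. With an FPKM of at least 5 in either library 444 rose and 595 fell, of 8472 genes, and at a 2-fold threshold 248 rose and 280 fell. Under the other alternatives the risen members numbered 512 to 962 and the fallen ones 735 to 1402, within 1.5 times of the reported counts. The median of all members was between -0.06 and 0 where it was recomputed over them, and rises were 41.0% of the calls, 44.9% after upper-quartile scaling, 49.0% after centring on the median, and 49.6% after quantile normalization. Of 304 calls of named or listed genes, 268 stayed past 1.5-fold after quantile normalization and 284 after centring. Sag, first in rank at both ages, had a log2 ratio of 0 after quantile normalization. Of list medians past 1.5-fold, that of DNA replication (-0.59) fell inside it under 6 alternatives (-0.57 to -0.52), and without the FPKM filter so did those of Müller glia (-0.58) and of erythroid cells (0.13). The cell cycle median was -0.70 over members with an FPKM of at least 1 in both libraries. It was -1.89 with a pseudocount of 0.1 and -2.08 with none. The endothelial median was -0.66 without the filter and -1.56 with no pseudocount. No list median or named gene past 1.5-fold changed sign. No paired analysis was possible because each group had 1 library, and no replicate could be left out. The bounds of Cufflinks describe 1 library, and the FPKM of 1516 members (P5) and of 1610 (P8) exceeded its own upper bound.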
